A study of Mus musculus with 16 samples.

Results

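The major urinary protein (Mup) genes examined here are 10 genes of the liver count table: Mup1, Mup2, Mup3, Mup7, Mup11, Mup12, Mup15, Mup16, Mup17 and Mup20. They were chosen by symbol from a table of 46078 genes and selected on their measured levels and summed share of counts in these libraries, so that their levels and changes are given as a description. Calls of members from the fit across all genes are counted beside the share of all genes called, and nothing is read from them. The table holds 48 rows of the family in all, of which 11 further rows carry a Mup symbol and 27 are annotated as Mup pseudogenes. Poly(A) RNA-seq was performed on livers of male C57BL6/J mice (strain entered as C56B6/J in the sample labels) kept for 16 weeks on control diet (CD) or on a diet with 60% of calories from fat (HFD). Livers were taken either from mice with free access to food (fed) or after a 16 h fast (fast), which gave the groups CD fed, CD fast, HFD fed and HFD fast with 4 libraries each. No group carried an engineered allele, and nothing in the labels says which mice shared a cage or a litter. The RNA came from unsorted liver tissue, so that fewer hepatocytes and less RNA per hepatocyte cannot be told apart.

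Major urinary proteins are small lipocalins, barrel-shaped proteins that hold volatile molecules in an inner pocket. In mice they are made by hepatocytes, secreted into blood, filtered by the kidney and excreted in urine, where they release bound pheromones slowly and act as scent signals themselves. Adult males make more of them than females, and their transcription in liver is known to depend on pulsed growth hormone acting through its receptor and STAT5B, on androgens, thyroid hormone and glucocorticoids, and on the zinc-finger proteins ZBTB20 and ZHX2. Mup20 encodes darcin, the protein by which females recognise and remember the scent of a male.

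All 10 genes lie on the minus strand of chromosome 4 of GRCm38, between position 60066469, the start of Mup7, and 62087342, the end of Mup3, and all are annotated as protein coding. Mup20 (chr4:62050234-62054158) and Mup3 (chr4:62083476-62087342) sit next to each other at the distal end. The other members are spread over the central array of near-identical copies, from Mup7 (chr4:60066469-60070475) through Mup2 (chr4:60135932-60154289), Mup1 (chr4:60498012-60501960), Mup11 (chr4:60658466-60662411), Mup12 (chr4:60737383-60741326), Mup15 (chr4:61435790-61439743) and Mup16 (chr4:61515592-61519531) to Mup17 (chr4:61591929-61595871).

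The copies differ by so few bases that their reads are hard to assign, which bears on every value below. A 60-base stretch of the coding sequence (bases 203 to 262 of the Mup7 coding sequence, GENCODE transcripts of GRCm38, coding strand) shows the 3 kinds of sequence among the members. Capitals mark bases that differ from Mup7.
Mup7: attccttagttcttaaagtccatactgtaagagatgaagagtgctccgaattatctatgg
Mup17: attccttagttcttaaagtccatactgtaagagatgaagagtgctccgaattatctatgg
Mup16: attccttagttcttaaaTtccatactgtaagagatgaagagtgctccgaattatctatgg
Mup2: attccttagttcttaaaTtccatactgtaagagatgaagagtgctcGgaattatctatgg
Mup20: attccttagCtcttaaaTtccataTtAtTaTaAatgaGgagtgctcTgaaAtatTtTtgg
Mup3: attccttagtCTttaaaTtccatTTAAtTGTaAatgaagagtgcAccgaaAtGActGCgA

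Mup1, Mup11, Mup12 and Mup15 had the same 60 bases as Mup2. Mup17 did not differ from Mup7 in this stretch, Mup16 differed at 1 base, Mup2 at 2, Mup20 at 12 and Mup3 at 18. Over the whole coding sequence the 28 pairs among Mup1, Mup2, Mup7, Mup11, Mup12, Mup15, Mup16 and Mup17 were 98.3% to 99.6% identical. Mup20 was 90.1% to 91.3% identical to those 8 genes, and Mup3 was 82.1% to 86.6% identical to the 9 others.

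The share of each transcript that a read can place was counted from all windows of 100 bases, the read length of the libraries, compared with every other annotated transcript. In Mup3 97.1% of the windows occurred in no other gene, and in Mup20 61.2%, the remainder being shared with the pseudogene Mup-ps19 alone. Mup17 followed with 40.6%, Mup12 with 22.5%, Mup16 with 19.9%, Mup11 with 16.5%, Mup7 with 12.9% and Mup1 with 12.8%. Mup2 and Mup15 had the least sequence of their own, 22 windows each, which is 2.66% of either transcript. Counts of Mup3 and Mup20 can therefore be read as counts of those genes to a larger extent than counts of the other 8, which depend on how reads that match several copies were handled. That setting is not given in the sources used here, and levels of single copies among the 8 are uncertain for this reason.

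The start regions of members were also compared. A link between these regions and the co-variation of the array genes (below) was not tested. RefSeq promoter windows of GRCm38.p6, running from 250 bases before to 50 bases after the annotated start, were at hand for 6 members, Mup2, Mup3, Mup7, Mup11, Mup15 and Mup17. In 5 of these the letters TATATAAG stood once on the coding strand, and the window of Mup7 did not hold them. The 50 bases before these letters are shown with the motif in capitals (minus strand of GRCm38.p6, 5′ to 3′).
Mup2, chr4:60139876-60139933: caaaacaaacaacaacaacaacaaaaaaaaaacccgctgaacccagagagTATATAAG
Mup11, chr4:60662390-60662447: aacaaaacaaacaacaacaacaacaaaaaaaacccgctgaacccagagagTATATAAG
Mup15, chr4:61439722-61439779: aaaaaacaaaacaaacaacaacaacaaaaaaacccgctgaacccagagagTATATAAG
Mup17, chr4:61595850-61595907: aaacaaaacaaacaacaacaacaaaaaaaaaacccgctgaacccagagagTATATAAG
Mup3, chr4:62087321-62087378: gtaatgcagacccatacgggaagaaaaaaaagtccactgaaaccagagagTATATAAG

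The letters TATATAAG, picked after these windows had been seen, occurred on either strand in 1.01% of the 32544 RefSeq promoter windows. The STAT5 motif TTCNNNGAA was in 8.33% of all windows, and the letters TATAAA, a spelling of the TATA box, in 13.6%. The palindromic glucocorticoid receptor motif was in 0.00922%. Each was searched on both strands, and none of these 3 was found in the windows of the 6 members. The search covers these letters in these windows only. Other spellings of a TATA box, which TATATAAG may be, were not counted by it, and its result does not mean that a TATA box is absent.

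The libraries held between 41364448 and 57583153 assigned counts. The hepatocyte genes Alb, Ttr, Apoa1, Cps1, Ass1 and Tat summed to between 70801 and 139597 CPM (counts scaled to 1000000 per library, with factors from the trimmed mean of M values, TMM) in every library, with 108596 to 139597 CPM in HFD fed and 70801 to 101969 CPM in HFD fast mice, and the 4 Y-linked genes examined were detected in all 16, as the labelled tissue and the stated sex require. Of 10 exocrine pancreas genes 5, among them Pnlip and Cpa1, were at no more than 3 counts in any library, and the list summed to 10.9 to 23.5 CPM in fed and 6.19 to 12.3 CPM in fasted mice. Cela1 of this list fell with fasting by 1.15 in CD (edgeR adjusted p = 0.0027) and by 1.05 in HFD (edgeR adjusted p = 0.015), the latter lost in 1 of 16 leave-one-out fits, without HFD fed replicate 1 (adjusted p = 0.0537). The summed level of 6 adipose genes was 13.6, 77.8, 25.4 and 32.4 CPM in HFD fast mice and 7.78 to 14.9 CPM in the other libraries. The summed level of 7 stellate-cell genes was 385 CPM in both HFD fed replicate 4 and HFD fast replicate 4, and 129 to 278 CPM in the other libraries. The deviations of these 2 libraries from their group means correlated with r = 0.66 across the genes tested, the highest value among all pairs of libraries from different groups. With the summed Mup level below, r was -0.60 for the stellate-cell, -0.47 for the adipose and 0.45 for the pancreas genes. For the hepatocyte genes it was -0.07. The part of these cell types in the Mup levels was not tested.

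The 10 genes together made up 0.68% to 2.68% of all counts of a library. In CD fed mice the share was 1.31%, 1.13%, 2.25% and 2.68%, with a mean of 1.85% ± 0.74 (SD, n = 4). In CD fast mice it was 1.89%, 1.68%, 1.16% and 2.09%, with a mean of 1.70% ± 0.40 (SD, n = 4). HFD fed mice had 2.61%, 2.48%, 2.14% and 0.70%, with a mean of 1.98% ± 0.88 (SD, n = 4), so that their lowest library lay below every CD library. In HFD fast mice the share was 1.40%, 0.91%, 2.23% and 0.68%, with a mean of 1.31% ± 0.68 (SD, n = 4). Counting error is small against this spread: the 95% Wilson interval of the lowest share ran from 0.682% to 0.687%. The libraries of all 4 groups overlapped, and differences between mice of the same group were larger than those between group means. The other rows of the family left this picture as it was, since the 10 members held 67.8% to 84.5% of all Mup counts in each library.

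**Figure D1:**
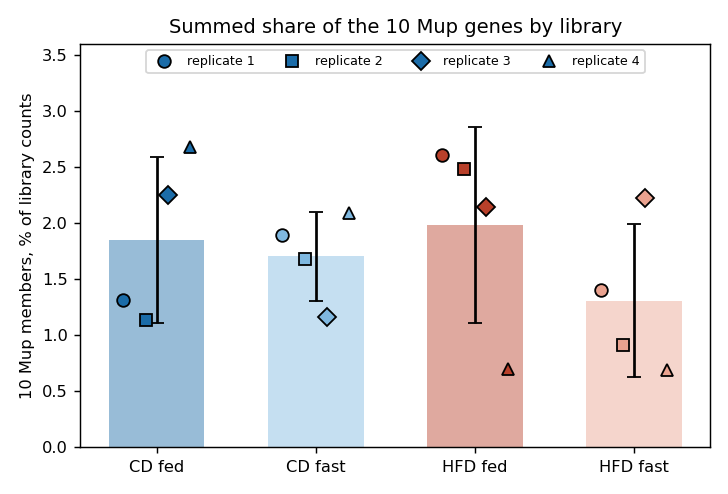
Summed counts of the 10 Mup genes as a percentage of all counts of each library (vertical axis) in the 4 groups (horizontal axis). Bars are group means, error bars SD (n = 4) and symbols single libraries, with shape giving the replicate number. The groups overlap, and the lowest libraries of both HFD groups, 0.70% and 0.68%, are the ones numbered 4.

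On the TMM scale the sum was 18927 ± 7622 CPM in CD fed, 17981 ± 4258 CPM in CD fast, 19483 ± 8762 CPM in HFD fed and 12440 ± 6579 CPM in HFD fast mice (mean ± SD, n = 4). The log2 ratio of group means was -0.07 for fasting in CD, -0.65 for fasting in HFD, 0.04 for HFD in fed mice and -0.53 for HFD in fasted mice. The within-group SD of the log2 sum was 0.50, 0.85, 0.78 and 0.61 in the groups of these comparisons, in the same order, so that each ratio was smaller than the spread. Leaving out single libraries moved the ratio for fasting in HFD between -1.03 and -0.42, and that for HFD in fasted mice between -0.92 and -0.30, and the lower bound of either is larger than the SD given above. In both ratios the lower bound was reached without HFD fast replicate 3, the highest of its group, and the upper bound without HFD fast replicate 4, the lowest.

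Levels of the members were compared per kilobase of exon, as the mean over 16 libraries. Mup3 was the highest at 5181 CPM per kb, followed by Mup20 at 3996, Mup7 at 3560, Mup17 at 1794, Mup15 at 905 and Mup11 at 552 CPM per kb. Mup2 at 312, Mup1 at 181, Mup16 at 135 and Mup12 at 80.2 CPM per kb closed the order. Each mean differed from its neighbour by less than the SD over libraries of at least 1 of the pair. The order of neighbours was still fairly regular within libraries, with Mup17 above Mup15 in 15 of 16 and Mup7 above Mup17 in 14 of 16, whereas Mup20 exceeded Mup7 in 11 of 16. Mup2 exceeded Mup1 in only 4 of 16 libraries although its mean was higher.

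Mup3, the most divergent member in sequence and the richest in counts, was among the steadier ones. Its level in CD fed mice was 4425, 6172, 6781 and 6949 CPM, and in CD fast mice 6317, 4651, 5766 and 5033 CPM. HFD fed mice had 8629, 7637, 7383 and 2797 CPM, and HFD fast mice 5001, 4662, 4515 and 1814 CPM. The libraries numbered 4 were the lowest of both HFD groups, and the other 3 HFD fed libraries were above all CD libraries. The fitted log2 fold change was -0.16 (SE 0.32) for fasting in CD and -0.73 (SE 0.32) for fasting in HFD. It was 0.12 (SE 0.32) for HFD in fed mice and -0.44 (SE 0.32) for HFD in fasted mice. Without HFD fed replicate 4 it was -0.98 for fasting in HFD, where edgeR called it, and 0.37 for HFD in fed mice, and without HFD fed replicate 1 the latter was -0.03. Without HFD fast replicate 4 it was -0.48 for fasting in HFD and -0.20 for HFD in fasted mice. For fasting in CD it ranged from -0.29 without CD fed replicate 1 to -0.09 without CD fed replicate 4.

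Mup20, which encodes darcin, had the narrowest range of the members, 2.92-fold between its lowest and highest library. In CD fed mice it was at 5745, 2058, 3780 and 4451 CPM, and in CD fast mice at 2257, 2901, 2578 and 3360 CPM. HFD fed mice held 6014, 5194, 4975 and 3409 CPM, and HFD fast mice 3060, 2195, 3793 and 3566 CPM. HFD fed replicate 4 was again the lowest of its group, but HFD fast replicate 4 was the second highest of its own. The log2 fold change was -0.53 (SE 0.26) for fasting in CD, -0.64 (SE 0.26) for fasting in HFD, 0.29 (SE 0.26) for HFD in fed mice and 0.19 (SE 0.26) for HFD in fasted mice. Fasting in CD gave -0.31 without CD fed replicate 1 and -0.75 without CD fed replicate 2, where edgeR called it, and in fed mice the change with HFD was 0.51 and 0.07 in the same fits. For HFD in fasted mice it ranged from 0.08 without HFD fast replicate 3 to 0.32 without HFD fast replicate 2. Its part of the summed member counts ran from 11.6% in CD fast replicate 1 to 58.9% in HFD fast replicate 4.

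Mup7 was the most abundant of the 8 members of the central array on the per-length scale. Its level in CD fed mice was 1109, 1398, 7218 and 6192 CPM, and in CD fast mice 6676, 4318, 2244 and 8018 CPM. HFD fed mice had 5407, 5222, 3424 and 132 CPM, and HFD fast mice 2277, 831, 4168 and 202 CPM. The lowest and the highest library differed 60.9-fold, and the lowest libraries of both HFD groups were again those numbered 4. Fasting gave a log2 fold change of 0.42 (SE 0.92) in CD and -0.92 (SE 0.93) in HFD, so that the error of either exceeded its size. HFD gave -0.17 (SE 0.92) in fed mice and -1.51 (SE 0.94) in fasted mice. Single libraries moved all 4 values. Fasting in CD gave 0.11 without CD fed replicate 1 and 0.87 without CD fed replicate 3, and HFD in fed mice gave -0.48 and 0.29 in the same fits. Fasting in HFD gave -1.69 when HFD fast replicate 3 was left out and -0.55 when replicate 4 of that group was, and HFD in fasted mice gave -2.27 and -1.13.

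Mup17, Mup15, Mup11, Mup1, Mup16 and Mup12 showed the same libraries as low. All 6 had their lowest level in HFD fed replicate 4, at 109 CPM for Mup17, 47.9 CPM for Mup15, 105 CPM for Mup11, 16.8 CPM for Mup1, 7.88 CPM for Mup16 and 3.28 CPM for Mup12. Their highest libraries differed. Mup17, Mup1 and Mup12 peaked in CD fed replicate 4 at 3203, 731 and 177 CPM. Mup15 peaked in HFD fast replicate 3 at 2631 CPM, Mup11 in HFD fed replicate 2 at 2260 CPM and Mup16 in CD fast replicate 4 at 554 CPM. The ratio of highest to lowest library was between 21.4 for Mup11 and 70.2 for Mup16.

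Together with Mup7 these genes summed to 2206, 2493, 12396 and 13610 CPM in CD fed mice and to 10766, 10177, 3967 and 14081 CPM in CD fast mice. In HFD fed mice the sum was 11148, 11246, 9025 and 422 CPM, and in HFD fast mice 5375, 2211, 10989 and 668 CPM. In each of the 4 groups the lowest and the highest library lay well apart. For these 7 genes the fitted change with fasting in CD lay between 0.09 (SE 0.87, Mup1) and 0.89 (SE 0.97, Mup16). With fasting in HFD it lay between -1.004 (SE 0.79, Mup11) and 0.05 (SE 0.98, Mup15). With HFD it lay between -0.83 (SE 0.93, Mup12) and 0.49 (SE 0.78, Mup11) in fed mice. In fasted mice it lay between -1.78 (SE 0.99, Mup16) and 0.13 (SE 0.98, Mup15), with 6 of the 7 genes negative. These limits rest on single libraries. For Mup15 the change with HFD in fasted mice was -1.30 when HFD fast replicate 3 was left out and 0.52 when replicate 4 of that group was, and that with fasting in HFD was -1.39 and 0.43 in the same fits. For Mup16 the change with HFD in fasted mice was -2.34 without HFD fast replicate 3 and -0.89 without CD fast replicate 4. For Mup1 the change with fasting in CD was -0.24 without CD fed replicate 1 and 0.75 without CD fed replicate 4. For Mup11 the change with HFD in fed mice was -0.05 without HFD fed replicate 2 and 1.02 without CD fed replicate 4.

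Mup2 behaved unlike the rest, with levels that fell into a high and a low range. It reached 992, 1023 and 2596 CPM in CD fed replicates 1, 2 and 4 and 1900 CPM in HFD fast replicate 3. In all other libraries it was far lower: 31.1 CPM in CD fed replicate 3, 38.6, 12.1, 7.42 and 12.6 CPM in CD fast mice, 40.5, 5.69, 5.10 and 1.36 CPM in HFD fed mice, and 3.86, 6.01 and 1.21 CPM in the remaining HFD fast mice. The highest library was 2142-fold above the lowest, and in raw counts the range was from 60 to 145306. No library lay between 40.5 and 992 CPM. Of the libraries high in Mup2, CD fed replicates 1 and 2 were the lowest of their group in the sum of the 7 other array genes, whereas CD fed replicate 4 and HFD fast replicate 3 were the highest of theirs.

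The mean of Mup2 was 1160 ± 1062 CPM in CD fed, 17.7 ± 14.1 CPM in CD fast, 13.2 ± 18.3 CPM in HFD fed and 478 ± 948 CPM in HFD fast mice (SD, n = 4). The log2 fold change was -6.04 (SE 2.05) for fasting in CD, 5.18 (SE 1.97) for fasting in HFD, -6.46 (SE 2.09) for HFD in fed mice and 4.76 (SE 1.93) for HFD in fasted mice. Without HFD fast replicate 3 the change for fasting in HFD was -1.84 and that for HFD in fasted mice -2.26, the opposite sign in both. As only 22 windows of 100 bases are particular to Mup2, its level is also the one most open to the handling of shared reads, together with that of Mup15.

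**Figure D2:**
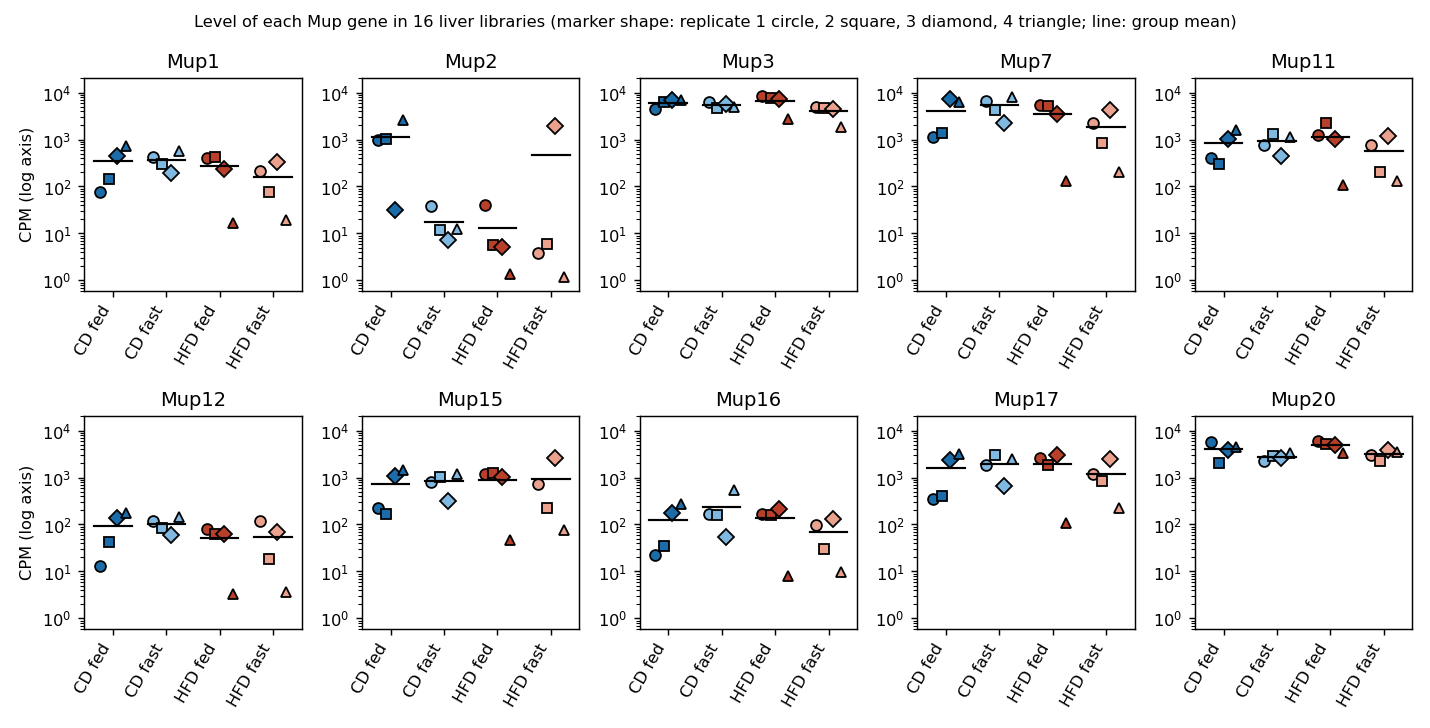
Level of each member in CPM (vertical log axis) in the 16 libraries by group (horizontal axis). Symbols are single libraries with shape giving the replicate number, and lines are group means (n = 4). Mup3 and Mup20 stay within 4.76-fold and 2.92-fold, Mup2 spans 2142-fold, and the libraries numbered 4 of both HFD groups lie lowest in Mup1, Mup7, Mup11, Mup12, Mup15, Mup16 and Mup17.

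The spread between mice of 1 group was large compared with that of other genes. Over the 11004 genes with a mean of at least 100 counts, the median within-group SD of log2 CPM was 0.16, the 95th percentile 0.49 and the 99th percentile 0.96. Mup2 had an SD of 2.97, Mup15 of 1.83, Mup12 and Mup7 of 1.80, Mup16 of 1.80, Mup17 of 1.65, Mup1 of 1.64 and Mup11 of 1.40, all 8 beyond the 99th percentile. Mup3, at 0.54, was beyond the 95th percentile, and Mup20, at 0.42, stood at the 92.6th. Mup3 and Mup20, the 2 members with the most sequence of their own, had the smallest spread, and Mup2, with 2.66% of its windows its own, had the largest. Mup17, with 40.6%, had a larger SD than Mup11, with 16.5%. The non-member Mup10, which shares windows with each of the 8, had an SD of 0.62. Whether the spread is related to shared reads was not tested.

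**Figure D3:**
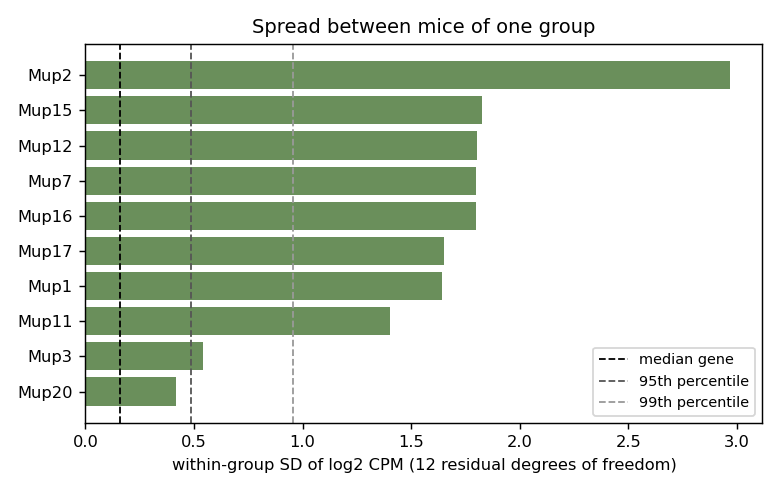
Within-group SD of log2 CPM (horizontal axis, 12 residual degrees of freedom) for each member (vertical axis). Dashed lines give the median (0.16), the 95th percentile (0.49) and the 99th percentile (0.96) of 11004 genes. Bars of 8 members pass the 99th percentile, and those of Mup3 and Mup20 are the shortest.

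The members did not vary independently from mouse to mouse. Across the 16 libraries the log2 CPM of the 21 pairs among Mup1, Mup7, Mup11, Mup12, Mup15, Mup16 and Mup17, a grouping made after the values were seen, correlated with Pearson's r between 0.86 and 0.99. After the group means had been subtracted r was between 0.89 and 0.99. These genes share reads and libraries, and the points are therefore not independent. Mup3, which shared no window of 100 bases with any other member, had an r of 0.69 to 0.82 with these 7 genes. Mup20, likewise without a shared window, had 0.01 to 0.41, and Mup2, which shares most of its sequence with the 7, had 0.24 to 0.41.

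**Figure D4:**
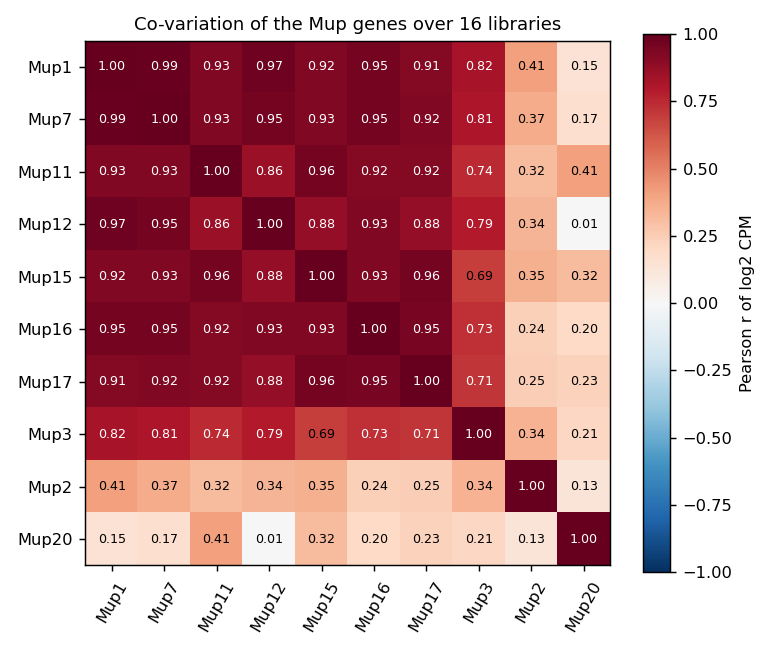
Pearson's r of log2 CPM between each pair of members over 16 libraries (colour and printed value; both axes list the members). The upper left block of 7 genes holds values from 0.86 to 0.99, Mup3 joins it with 0.69 to 0.82, and Mup2 and Mup20 stay at or below 0.41 with these genes.

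Outside the family, the genes whose log2 CPM was most like the log2 sum of the members over 16 libraries, among 10983 genes with a mean of at least 100 counts, were Capn8 (r = 0.89), Cib2 (r = 0.82), Cadps2 (r = 0.81), Tspan33 (r = 0.81) and Cyp7b1 (r = 0.80). Capn8, a calpain protease, was at 0.51 and 0.46 CPM in the HFD fed and HFD fast replicates numbered 4 and at 1.46 to 8.34 CPM elsewhere. Cyp7b1, an oxysterol hydroxylase that is itself higher in male liver, was at 72.4 and 59.9 CPM in those libraries and at 89.4 to 334 CPM elsewhere. The genes most opposed were Lsp1 (r = -0.87), Kif16b (r = -0.83) and Acot9 (r = -0.81). Lsp1, a leukocyte actin-binding protein, was highest in HFD fast replicate 4 at 5.96 CPM and HFD fed replicate 4 at 3.67 CPM. These likenesses describe 16 points that share their libraries.

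The comparisons across genes were made in an edgeR quasi-likelihood fit of 15075 genes with Benjamini-Hochberg adjustment, in which a call means an adjusted p under 0.05. Of the 10 members 1 was called for fasting in CD, against 25.2% of all genes tested, and none for fasting in HFD, against 8.86%. None was called for HFD in fed mice, against 7.5%, or for HFD in fasted mice, against 7.7%, and 1 was called for the difference between the fasting responses in HFD and CD, against 2.59%. The member called was Mup2 on both occasions. Its call for fasting in CD was lost by limma-voom and in 7 of 16 leave-one-out fits, those without any CD fast library or without CD fed replicate 1, 2 or 4. Its call for the difference between diets was lost by limma-voom, with a replicate block and in 12 of 16 leave-one-out fits, all but those without CD fed replicate 3 or HFD fast replicate 1, 2 or 4. DESeq2 called 1 member, also Mup2, in each of the 3 comparisons in which edgeR called none, and without adjustment edgeR gave a p under 0.05 for 3, 1 and 1 members there. In none of the 4 comparisons did any member have libraries that were separate between groups, whereas 25.4%, 16.7%, 15.7% and 14% of all genes tested had. The median log2 fold change of the members was 0.14 for fasting in CD, -0.72 for fasting in HFD, 0.11 for HFD in fed mice and -0.71 for HFD in fasted mice, and that of all genes lay between -0.01 and 0.01.

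The other Mup rows were examined in the same way. Of 11 rows, 9 were tested, and Mup4 and Mup5 were too low. Mup10, Mup14, Mup19, Mup9 and Mup21 were the most abundant by counts. Mup14 followed the sum of the members with an r of 0.96, Mup19 with 0.92 and Mup9 with 0.91, but Mup10 only with 0.55. Between CD fed and CD fast mice the libraries of Mup10 and Mup21 did not overlap, as in 25.4% of all genes tested. Mup10 was higher in CD fast mice, at 3034 ± 264 against 2104 ± 850 CPM (SD, n = 4). Its lowest CD fast library, at 2777 CPM, was barely above its highest CD fed library, at 2763 CPM. CD fed replicate 2 was the lowest, at 961 CPM. Mup21 was lower in CD fast mice, at 68.7 ± 12.8 against 131 ± 61.1 CPM. Neither was called for fasting in CD. A call was made for 1 row, for HFD in fed mice, against 3.28% of all genes called higher there. This row, Mup6, was 0.45 ± 0.06 CPM in CD fed and 1.45 ± 0.48 CPM in HFD fed mice (SD, n = 4), a rise of 1.68 on the log2 scale (SE 0.41, edgeR adjusted p = 0.0216), without overlap of libraries, as in 15.7% of all genes tested. The call was lost in 3 of 16 leave-one-out fits (highest adjusted p = 0.0733, without HFD fed replicate 3), and the row held a mean of only 42.8 counts. Among the 8 pseudogenes tested 1 was called lower with fasting in CD, a share near the 11.5% of all genes. It was Mup-ps13, which fell with fasting in CD by 0.85 on the log2 scale (SE 0.26, edgeR adjusted p = 0.0266), a call lost in 4 of 16 leave-one-out fits (highest adjusted p = 0.0831, without CD fed replicate 3).

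Other male-biased liver genes, a list of 13 of which 12 were tested, were called lower with fasting on both diets. In CD 7 of 12 fell and none rose, against 11.5% of all genes called lower, and in HFD 7 of 12 fell and none rose, against 4.07% called lower. In the CD comparison 3 of 8 macrophage, 3 of 7 sinusoidal endothelial and 1 of 7 stellate-cell genes were also called lower. The erythroid gene Alas2 fell by 1.09 (SE 0.11, edgeR adjusted p = 1.2e-05), a call lost in 0 of 16 leave-one-out fits. The pancreas gene Cela2a fell by 1.57 (SE 0.53, edgeR adjusted p = 0.0415), a call lost in 8 of 16. The macrophage count was 0 without CD fed replicate 1 and 1 without CD fast replicate 1 or 3, the stellate-cell count was 0 without CD fed replicate 1, and the endothelial count was 2 to 4 over left-out libraries. The summed macrophage genes were 271 to 525 CPM in CD fed and 183 to 305 CPM in CD fast mice, the endothelial genes 294 to 338 and 215 to 284 CPM, and the stellate-cell genes 212 to 276 and 129 to 214 CPM. Their part in the result was not tested. The male-biased genes that fell were Hsd3b5, Selenbp2, Elovl3, Slco1a1, C6, Gstp1 and Ugt2b38 on both diets, of which Ugt2b38 was lost in CD in 5 of 16 leave-one-out fits (highest adjusted p = 0.0882, without CD fast replicate 2). Hsd3b5, a steroid-metabolising enzyme of male liver, went from 221 ± 50.3 CPM in CD fed to 5.12 ± 2.89 CPM in CD fast mice (SD, n = 4), a fall of 5.43 on the log2 scale (SE 0.97, edgeR adjusted p = 0.00105). C6, a complement component, fell by 0.96 in CD (SE 0.17, edgeR adjusted p = 0.0012) and by 1.38 in HFD (SE 0.18, edgeR adjusted p = 0.000469). In HFD the calls of Hsd3b5, Selenbp2 and Elovl3 were lost in 3, 5 and 11 of 16 leave-one-out fits (highest adjusted p = 0.0865, 0.0902 and 0.131, without HFD fed replicate 2 for Hsd3b5 and Selenbp2 and without HFD fed replicate 3 for Elovl3), and a fit of the HFD groups alone called 4 of the 12 genes, as did the fits without HFD fed replicate 1, HFD fed replicate 2 or HFD fast replicate 1. The median log2 fold change of the list was -0.84 in CD and -1.30 in HFD. Cyp2d9 and Cyp7b1, which vary with the sum of the Mup genes (r = 0.77 and 0.80), were not called with fasting: their log2 fold changes in CD were 0.34 (SE 0.34) and -0.88 (SE 0.39). Whether the male-biased genes and the Mup genes responded differently was not tested.

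**Figure D5:**
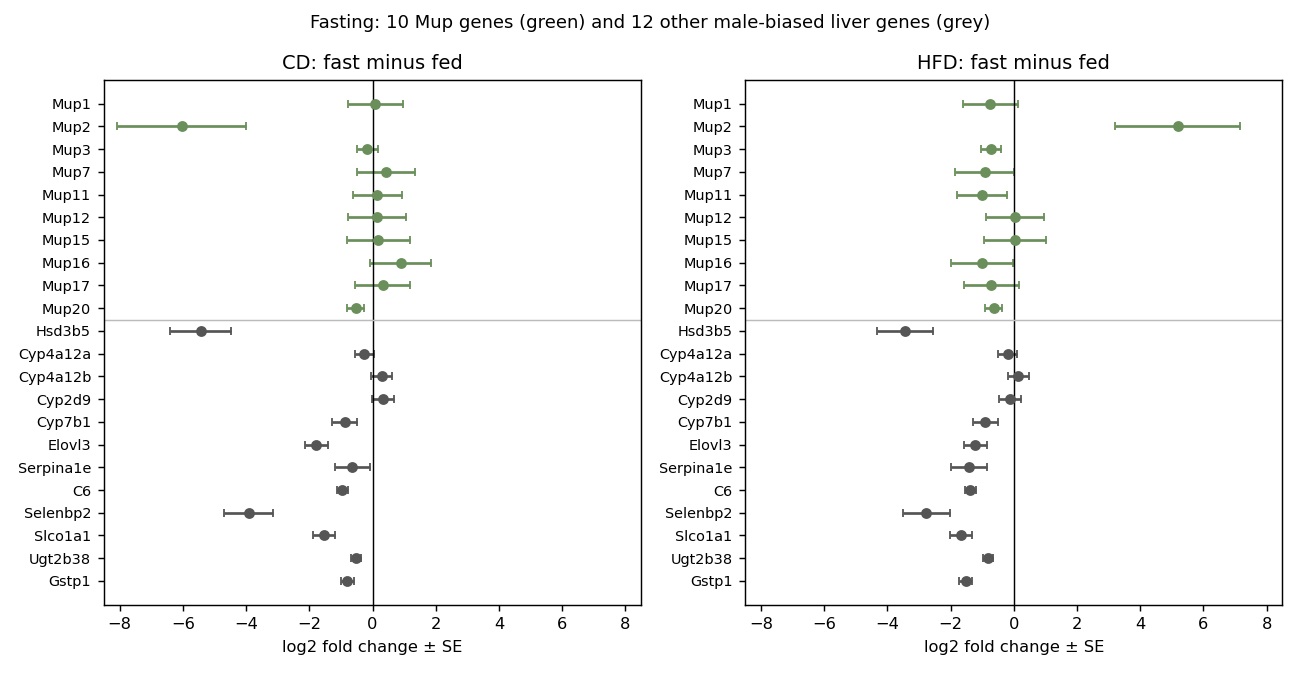
Fitted log2 fold change with its SE (horizontal axis) for fasting in CD (left panel) and in HFD (right panel), for the 10 Mup genes (green) and 12 other male-biased liver genes (grey, vertical axis). Except for Mup2, at -6.04 and 5.18, the Mup genes lie between -1.004 and 0.89, with SEs of 0.26 to 0.98, while Hsd3b5 lies at -5.43 and -3.45.

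With HFD, 2 of 12 male-biased genes were lower in fed mice, against 4.22% of all genes, and 3 of 12 in fasted mice, against 4.65%. Cyp4a12b, a fatty acid hydroxylase, fell by 1.23 in fed mice (SE 0.34, edgeR adjusted p = 0.0395) and by 1.37 in fasted mice (SE 0.34, edgeR adjusted p = 0.0251), calls that were lost in 5 and 3 of 16 leave-one-out fits (highest adjusted p = 0.116 without HFD fed replicate 3 and 0.0741 without HFD fast replicate 3). Ugt2b38, the other gene lower in fed mice, was lost in 6 of 16 leave-one-out fits (highest adjusted p = 0.078, without CD fed replicate 3). The count for fed mice was 0 without CD fed replicate 4, HFD fed replicate 1 or HFD fed replicate 3, and 1 without CD fed replicate 1, 2 or 3 or HFD fed replicate 4. The female-biased list had 15 genes, of which 10 were tested. In fed mice 3 rose and 2 fell with HFD, against 3.28% of all genes called higher and 4.22% lower, and in fasted mice 6 rose, against 3.05% called higher. The count of 5 in fed mice was 3 without CD fed replicate 1, CD fed replicate 2 or HFD fed replicate 3. Cyp2b9, a cytochrome P450 that is low in adult male liver, was 0.56 ± 0.41 CPM in CD fed and 61.9 ± 67.9 CPM in HFD fed mice (SD, n = 4), a rise of 6.79 on the log2 scale (SE 1.08, edgeR adjusted p = 0.00187). Cyp2a4 rose by 7.76 in the same comparison (SE 1.36, edgeR adjusted p = 0.00346), and limma-voom gave it an adjusted p of 0.135 and called 3 genes of the list there. Cyp2c40 fell by 3.07 there (SE 0.67, edgeR adjusted p = 0.013). In fasted mice limma-voom did not call Cyp2a4 (adjusted p = 0.206) or Hao2 (adjusted p = 0.0858). With HFD in fasted mice 2 of 7 sinusoidal endothelial and 1 of 7 stellate-cell genes were called higher, each lost in some leave-one-out fits. Alas2 rose by 0.39 (SE 0.11, edgeR adjusted p = 0.0365), lost in 7 of 16. The hepatocyte gene Tat fell by 1.92 (SE 0.40, edgeR adjusted p = 0.0123). Their part in the result was not tested. With fasting in HFD 1 female-biased gene, Slc22a26, rose, against 4.78% of all genes called higher, and with fasting in CD none was called by edgeR, none also at an unadjusted p under 0.05.

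The growth hormone axis was examined as a list of 10 genes, all tested. With fasting in CD, 2 fell and 1 rose, against 11.5% of all genes called lower and 13.7% called higher, so that the count of calls is near that of all genes. Stat5b, the transcription factor that carries the male growth hormone signal, was 77.4 ± 14.4 CPM in CD fed and 48.7 ± 4.13 CPM in CD fast mice (SD, n = 4), a fall of 0.67 (SE 0.13, edgeR adjusted p = 0.0016). Ghr, the growth hormone receptor, fell by 0.55 (SE 0.17, edgeR adjusted p = 0.0267), a call lost in 4 of 16 leave-one-out fits (highest adjusted p = 0.0847, without CD fast replicate 2). Cux2, a female-biased repressor, rose by 3.73 (SE 0.72, edgeR adjusted p = 0.00177). Its level was 0.35, 6.70, 2.40 and 9.81 CPM in CD fast mice and 0.22 to 0.45 CPM in CD fed mice. CD fast replicate 1 thus lay within the CD fed range, and the gene held a mean of only 70 counts. Its libraries also overlapped for HFD in fasted mice. None of the list was called with fasting in HFD, with 1 gene at an unadjusted p under 0.05. Of the 10 genes 1 was called for HFD in fed mice, against 7.5% of all genes, and 2 for HFD in fasted mice, against 7.7%. Stat5b fell with HFD in fed mice by 0.51 (SE 0.13, edgeR adjusted p = 0.0242), a call lost in 5 of 16 leave-one-out fits (highest adjusted p = 0.0784, without HFD fed replicate 3), and its log2 fold change in fasted mice was 0.01 (SE 0.13). Cux2 fell with HFD in fasted mice, with a log2 fold change of -3.33 (SE 0.71, edgeR adjusted p = 0.0128), a call not made by limma-voom, and Stat5a rose by 0.54 (SE 0.15, edgeR adjusted p = 0.0405), a call lost in 11 of 16 leave-one-out fits (highest adjusted p = 0.0943, without CD fast replicate 4). Igf1, the main secreted product of the axis, was 465 ± 75.01, 482 ± 68.6, 427 ± 64.3 and 398 ± 55.7 CPM in CD fed, CD fast, HFD fed and HFD fast mice (SD, n = 4), and it was not called. Stat5b and Ghr had an r of 0.22 and 0.35 with the sum of the Mup genes over 16 libraries.

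Among 12 known or candidate regulators of Mup transcription in liver, all tested, Zbtb20 changed most firmly. It was 228 ± 32.03 CPM in CD fed, 106 ± 14.3 CPM in CD fast, 140.4 ± 7.71 CPM in HFD fed and 135 ± 23.3 CPM in HFD fast mice (SD, n = 4). It fell with fasting in CD by 1.10 (SE 0.13, edgeR adjusted p = 3.83e-05) and with HFD in fed mice by 0.70 (SE 0.13, edgeR adjusted p = 0.00463). With fasting in HFD its log2 fold change was -0.05 (SE 0.13), and the difference between the diets, 1.05, was called (SE 0.18, edgeR adjusted p = 0.0114). Its r with the sum of the Mup genes was 0.11. Zhx2 was not called, with log2 fold changes from -0.26 to -0.01 in the 4 comparisons of 2 groups. Hnf4a, a hepatocyte nuclear receptor, fell with fasting in HFD by 0.55 (SE 0.10, edgeR adjusted p = 0.00601). Foxa3 rose with HFD in fed mice by 0.47 (SE 0.14, edgeR adjusted p = 0.0468), a call lost in 11 of 16 leave-one-out fits (highest adjusted p = 0.121, without HFD fed replicate 2) and also by limma-voom.

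Neighbouring genes on chromosome 4 and other secreted hepatocyte proteins were looked at in the same way. The nearest 3 tested genes on either side of the array, E130308A19Rik, Inip and Snx30 on the left and Zfp37, Slc31a2 and Fkbp15 on the right, had an r with the sum of the Mup genes between -0.45 and 0.35, and between -0.58 and 0.45 after subtraction of the group means. E130308A19Rik and Slc31a2 fell with fasting in CD, by 0.49 (SE 0.13, edgeR adjusted p = 0.0147) and by 0.29 (SE 0.08, edgeR adjusted p = 0.016), 2 of 6 genes against 11.5% of all genes called lower, and the call of Slc31a2 was lost without CD fed replicate 4 (adjusted p = 0.0507). Of 20 genes for other secreted hepatocyte proteins r was between -0.43 and 0.63, the highest for Serpina1c and Serpina3k, and Alb, which encodes albumin, had -0.11. After the group means had been subtracted r was between -0.60 and 0.64, and it was -0.60 for both Alb and Ahsg, which encodes fetuin-A. With fasting in CD 1 of these 20 rose and 5 fell, against 13.7% of all genes called higher and 11.5% called lower, a count of calls near that of all genes. Ttr, the carrier of thyroxine, fell by 0.92 (SE 0.20, edgeR adjusted p = 0.00436). Hp, an acute-phase protein, rose by 0.98 (SE 0.17, edgeR adjusted p = 0.000902).

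Of 11 further genes of the lipocalin family 9 were tested, and with fasting in HFD 4 rose and 1 fell, against 4.78% of all genes called higher and 4.07% called lower. The count of 5 was 2 without HFD fed replicate 2 and 3 without HFD fed replicate 1 or HFD fast replicate 3. The calls of Orm3 and of Ptgds, the gene that fell, were lost in 2 and 4 of 16 leave-one-out fits (highest adjusted p = 0.0579 for Orm3, with HFD fast replicate 2 left out, and 0.135 for Ptgds, with HFD fed replicate 1 left out). Orm1 and Orm2, acute-phase lipocalins, rose by 1.29 (SE 0.26, edgeR adjusted p = 0.00875) and by 3.65 (SE 0.66, edgeR adjusted p = 0.00468). Lcn2, a siderophore-binding lipocalin, rose with fasting on both diets, by 3.35 in CD (SE 0.76, edgeR adjusted p = 0.00494) and by 2.90 in HFD (SE 0.71, edgeR adjusted p = 0.0211). Rbp4, the retinol carrier, rose with fasting in CD by 0.64 (SE 0.11, edgeR adjusted p = 0.000637). In HFD the call of Lcn2 was lost in 3 of 16 leave-one-out fits (highest adjusted p = 0.0735, without HFD fed replicate 1), and in CD limma-voom gave it an adjusted p of 0.0617.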

How the data were processed

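Liver poly(A) RNA-seq libraries (100-base paired reads) were aligned by the authors with TopHat2 2.0.11 to GRCm38 and counted per gene with featureCounts, and the deposited values are raw counts. The treatment of reads that match several genes is not given in the sources used here. The gene names of the deposited identifiers were taken from the annotation, which named 45229 of 46078. The members and the gene lists were chosen with earlier results of these data known. Genes were kept by the filterByExpr rule (15075 genes), scaled by TMM and fitted with edgeR 4.0.16 (quasi-likelihood, R 4.3.3) over all 16 libraries in 4 groups, with p adjusted over all genes tested. CPM are TMM scaled, and correlations used log2 CPM with a prior count of 2. Nothing in the labels says how the replicates were separated beyond their number, so that p-values measure the spread between these libraries. No pair of replicates agreed within sampling noise (chi-square per gene of at least 37.5 over 24 pairs). Intervals of shares cover counting error only. Named genes were the 10 members and other Mup rows with a mean of at least 10 counts. Up to 4 called genes per list and comparison (those of smallest p) were also named. So were Stat5b, Ghr, Zbtb20 and Zhx2, and the 5 most and 3 least similar genes with at least 100 counts. Igf1, Cyp2d9, Mup4, Mup5, Cela1, Cela2a, Alas2, Tat, Hao2, Serpina1c, Serpina3k, Alb and Ahsg were chosen after their values were seen. Naming a called gene of 1 comparison in others too, and naming all 6 neighbouring genes, was also decided then. The fit was tested on simulated data for fasting in CD, with the same dispersion for every gene. There edgeR recovered 82.6% of 2-fold changes, and 3.72% of its calls were false, against 8.72% for DESeq2. The larger spread of the Mup genes was not simulated, so that the test does not cover them. Alternatives were DESeq2 1.42.0, limma-voom 3.58.1, other scalings and filters, a replicate block and leaving out libraries.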

Additional observations from a re-analysis of the deposited data

Results flagged for a closer look

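In groups of 4 libraries, a library was singled out when its gap to the nearest other divided by the range of its group exceeded Dixon's 95% critical value. This was applied to 44 groups of values. Chance alone singles out about 1 in 20 where values are independent and normally distributed. These were untransformed CPM, partly of copies that share reads, so that the chance rate here is not known. Mup2 was singled out in CD fast replicate 1 at 38.6 CPM, in HFD fed replicate 1 at 40.5 CPM and in HFD fast replicate 3 at 1900 CPM. Mup15 was singled out in HFD fed replicate 4 at 47.9 CPM, and Mup3 in HFD fast replicate 4 at 1814 CPM. Among the listed genes outside the members, the response to fasting differed between the diets for 3 by the interaction test of edgeR, which called 2.59% of all genes tested. The difference was 1.05 on the log2 scale for Zbtb20 (adjusted p = 0.0114), 1.47 for Orm1 (adjusted p = 0.0453) and 0.71 for Alas2, an erythroid heme synthesis gene (adjusted p = 0.0248). The call of Alas2 was lost in 2 of 16 leave-one-out fits, with the highest adjusted p, 0.0543, without HFD fast replicate 3, and without both HFD libraries numbered 4 (adjusted p = 0.0525). The call of Orm1 was lost in 12 of 16 leave-one-out fits, with the highest adjusted p, 0.0956, without HFD fed replicate 3, and also with a replicate block and without both HFD libraries numbered 4.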

How the results depend on the processing

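The log2 ratio of the summed members moved by less than the spread between libraries under every alternative run. Over left-out libraries it ranged from -0.25 to 0.17 for fasting in CD, -1.03 to -0.42 for fasting in HFD, -0.13 to 0.33 for HFD in fed mice, -0.92 to -0.30 for HFD in fasted mice and -0.96 to -0.35 for the interaction. The number of members called moved between 0 and 1 over left-out libraries for both fasting comparisons, the interaction and HFD in fed mice. The gene called was Mup2, except for Mup20 in its place for fasting in CD without CD fed replicate 2 and Mup3 for fasting in HFD without HFD fed replicate 4. limma-voom called 0 members for fasting in CD and 0 for the interaction. DESeq2 called 1 for fasting in HFD, 1 for HFD in fed mice and 1 for HFD in fasted mice, and a fit of only the groups compared called 1 for HFD in fed mice. Without both HFD libraries numbered 4, an alternative chosen after seeing the data, 1 member was called for fasting in HFD, Mup3, and 0 for the interaction.

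Of the non-member genes of the growth hormone, regulator, male-biased, female-biased and other Mup lists, 11 were called for HFD in fasted mice, 7 by limma-voom and 6 in a fit of only the groups compared. For the interaction 1 was called, against 5 by DESeq2 and 2 with DESeq2 size factors in edgeR, and 1 to 2 over left-out libraries. For HFD in fed mice the count of 11 ranged from 5 to 12 over left-out libraries. The causes were not tested. Scaling by total counts raised the median of all genes for HFD in fasted mice to 0.17 on the log2 scale.

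Libraries with the same replicate number deviated together in only some pairs (24 pairs, r from -0.24 to 0.66, 8 of them over 0.1), so the number was not taken to pair mice. A replicate block called 1 member for fasting in CD and 0 for the interaction, where 1 was called without it.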
